A study of Drosophila melanogaster with 6 samples.

Results

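The gap and maternal coordinate genes bcd, cad, hb, Kr, gt and tll were followed in whole Drosophila melanogaster embryos that lacked trh and in wild type embryos. The genes were taken as listed, and every probe set that the platform annotation named for 1 of them alone was used. This gave 8 of the 18769 probe sets that were not controls and all 6 listed genes, of 11981 genes named alone on the array. The genes bcd and gt had 2 probe sets each and the other 4 genes had 1 each. There were 6 arrays of the Affymetrix type Drosophila Genome 2.0, read in 1 colour: 3 for embryos described as trh null mutants and 3 for wild type embryos. The gene trh (trachealess) encodes a bHLH-PAS transcription factor of the tracheal, salivary duct and filzkörper primordia. Embryos of both genotypes were laid over 8 h, aged for 11 h more and passed through a COPAS biosorter. Embryos without trh were picked as those that did not show the GFP of the balancer chromosome. The labels name neither the trh allele, nor the balancer, nor the wild type strain. All 6 samples are given as stages 11 to 16, but the description of the wild type samples gives stage 17 as the last stage. The labels do not say whether replicate arrays stand for separate collections of embryos, and the spread behind each p-value may therefore be only technical.

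Maternal coordinate genes lay down the body axes of the egg, and the gap genes read that information in the blastoderm and divide the embryo into broad regions. The bcd mRNA is made by the mother, is held at the anterior pole and encodes a homeodomain protein, which activates hb and blocks translation of cad mRNA. The genes hb and Kr encode zinc finger transcription factors, gt a bZIP repressor, tll an orphan nuclear receptor of the embryo's termini and cad a homeodomain protein of the posterior. All of this precedes the stages sampled here. Several of these genes are used again later: hb and Kr in successive divisions of neuroblasts, Kr also in the amnioserosa and Malpighian tubules, tll in the brain, cad in the hindgut and gt in the head and nervous system. Each array holds RNA of a whole embryo population, so fewer cells of a type and less RNA per cell cannot be told apart.

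In trh null embryos Kr rose 2.21-fold, and 1 of the 2 probe sets for gt rose 1.65-fold. The genes tll and hb had higher means in trh null embryos, cad and bcd had lower ones, and none of these 4 passed the test. Counted as probe sets, 2 of 8 rose, 0 fell and 6 did not pass, while over all probe sets 6.19% rose and 5.64% fell (limma's moderated test, Benjamini-Hochberg adjusted p under 0.05 over all 18769). At an unadjusted p under 0.05, 3 of the 6 genes, each by its brighter probe set, were past the threshold, as were 30.4% of all genes. The 3 trh null values lay above all 3 wild type values for 4 of the 8 probe sets, against 17.7% of all probe sets. None of the 8 lay wholly below, against 18.3% of all. The median difference of the 8 probe sets was 0.43 on the log2 scale, against -0.01 over all probe sets, and was 0.21 without wild type replicate 2.

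**Figure D1:**
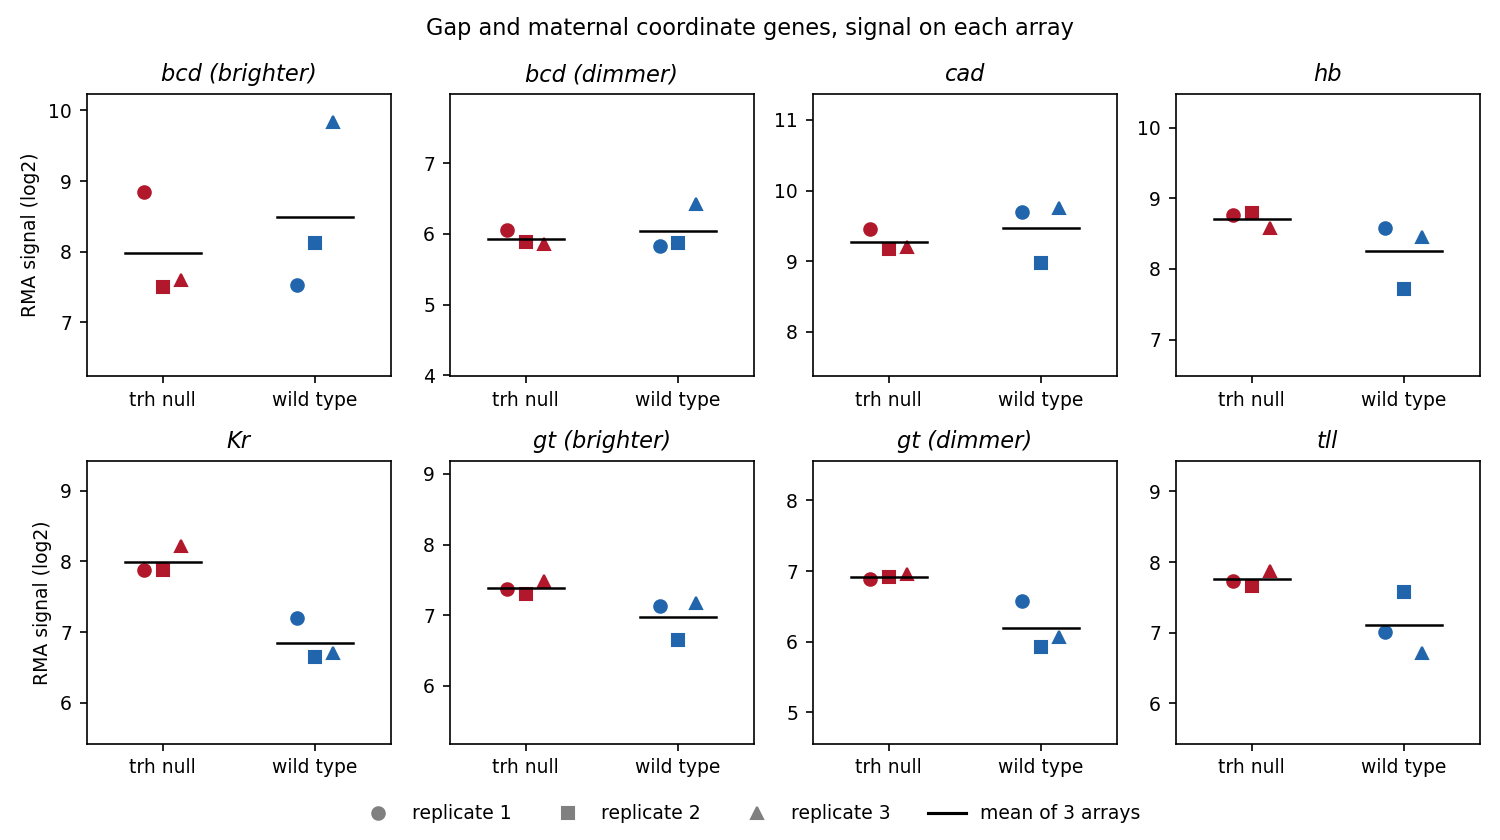
Signal (RMA, log2) of the 8 probe sets on each array, trh null on the left and wild type on the right of each panel, with the replicate shown by the symbol and the mean of 3 arrays as a line. All vertical axes span the same log2 distance around the mean of the probe set. For Kr, both gt probe sets and tll the trh null values lie above all wild type values, and for the brighter bcd probe set the highest array of each genotype stands far from the others.

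Some properties of the arrays bear on these values. The 6 arrays had median log2 signals of 6.16 to 6.22, so overall brightness was alike, as RMA makes it. Wild type replicate 2 stood apart: its root mean square deviation from the mean of its genotype was 0.33, against 0.19 and 0.22 for the other wild type arrays and 0.10 to 0.15 for the trh null arrays. It was the lowest wild type array for 5 of the 8 probe sets, as it was for 31.0% of all. All 8 probe sets varied less between trh null than between wild type arrays, as did 78.4% of all probe sets. The log2 ratio of 3' over 5' signal of control probe sets, a measure of RNA length, was lower on all trh null arrays for each of 3 control genes. For actin it was 0.76 ± 0.03 on trh null and 1.36 ± 0.09 on wild type arrays (SD, n = 3 each). For eIF-4a it was 1.12 ± 0.03 on trh null and 1.52 ± 0.10 on wild type arrays, and for GAPDH it was 0.84 ± 0.13 on trh null and 1.12 ± 0.08 on wild type arrays. The exact two-sided permutation p was 0.1 for each, the smallest that 3 against 3 allows. The part of these differences in the results below was not tested.

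The bcd transcript was followed by 2 probe sets. On the brighter one (1631463_a_at) the log2 signal was 8.85, 7.50 and 7.61 in trh null embryos and 7.53, 8.12 and 9.83 in wild type embryos. On the dimmer one (1626502_s_at) it was 6.05, 5.88 and 5.86 in trh null embryos and 5.83, 5.87 and 6.42 in wild type embryos, close to the median of all probe sets, 6.21. The genotypes overlapped on both, and on both the same arrays were the brightest of their genotype: trh null replicate 1 and wild type replicate 3. The brighter probe set averaged 7.99 ± 0.75 in trh null and 8.49 ± 1.19 in wild type embryos (SD, n = 3 each). The difference was -0.51 on the log2 scale, with a 95% interval from -2.07 to 1.05 (limma adjusted p = 0.676). Without wild type replicate 3 it changed sign on the brighter probe set, to 0.16, and on the dimmer one, from -0.11 with all arrays to 0.08.

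Among genes of like brightness, those with the array profile nearest to bcd were twe and swa. Likeness was measured as the Euclidean distance between mean-centred log2 profiles over the 6 arrays, among 1848 named genes whose mean lay within 1 log2 unit of that of bcd. The distances were 0.60 for twe, a Cdc25-type phosphatase gene used in meiosis, and 0.74 for swa, which the mother needs to place bcd mRNA at the anterior pole. The signal of twe was 7.88, 6.87 and 6.66 in trh null embryos and 6.74, 6.77 and 8.60 in wild type embryos. That of swa was 8.78, 7.23 and 6.76 in trh null embryos and 6.91, 7.59 and 8.89 in wild type embryos. Both had trh null replicate 1 and wild type replicate 3 as the brightest arrays of their genotype, as bcd had.

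This array pattern was noticed in these data and was then counted in the lists of related genes, as a description. Trh null replicate 1 and wild type replicate 3 were each the brightest of their genotype for 5 of 10 measured anterior-posterior maternal genes and translational regulators (osk, pum, stau, swa and smg). They were so for 3 of 7 genes of the terminal system (tor, fs(1)N and csw), 5 of 11 dorsal-ventral maternal genes (cact, ea, snk, gd and tub) and 3 of 4 general early activators (zld, Clamp and Stat92E). Any lead counted, however small, and some were near ties. Wild type replicate 3 was at 11.497 for Clamp, where wild type replicate 2 was at 11.496. For gd these arrays were at 5.28 and 5.27, and for stau wild type replicates 3 and 1 were at 9.80 and 9.79. None of the 7 other gap and head gap genes, the 7 pair-rule genes or the 5 neuroblast temporal factors showed it, against 12.3% of all genes by their brightest probe set. Among the 6 genes followed here, bcd and cad showed it. The pattern is that of bcd itself, and swa was already picked for its likeness to bcd, so neither adds to the count. For cad wild type replicates 3 and 1 were close, at 9.75 and 9.70. The excess of trh null replicate 1 over the mean of the other trh null arrays was 1.30 on the log2 scale for the brighter bcd probe set, and that of wild type replicate 3 over the other wild type arrays was 2.01. For tor, the receptor kinase gene of the terminal system, these values were 1.49 and 2.05, and for smg, a regulator that clears maternal mRNA, they were 1.02 and 1.77. For osk, the germ plasm gene, they were 1.07 and 0.05, so wild type replicate 3 hardly exceeded the others there. The other measured anterior-posterior genes, vas, tud, exu, brat and eIF4EHP, did not show the pattern. For exu the 2 values were 0.92 and -0.06, and for vas 0.05 and 0.13.

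**Figure D2:**
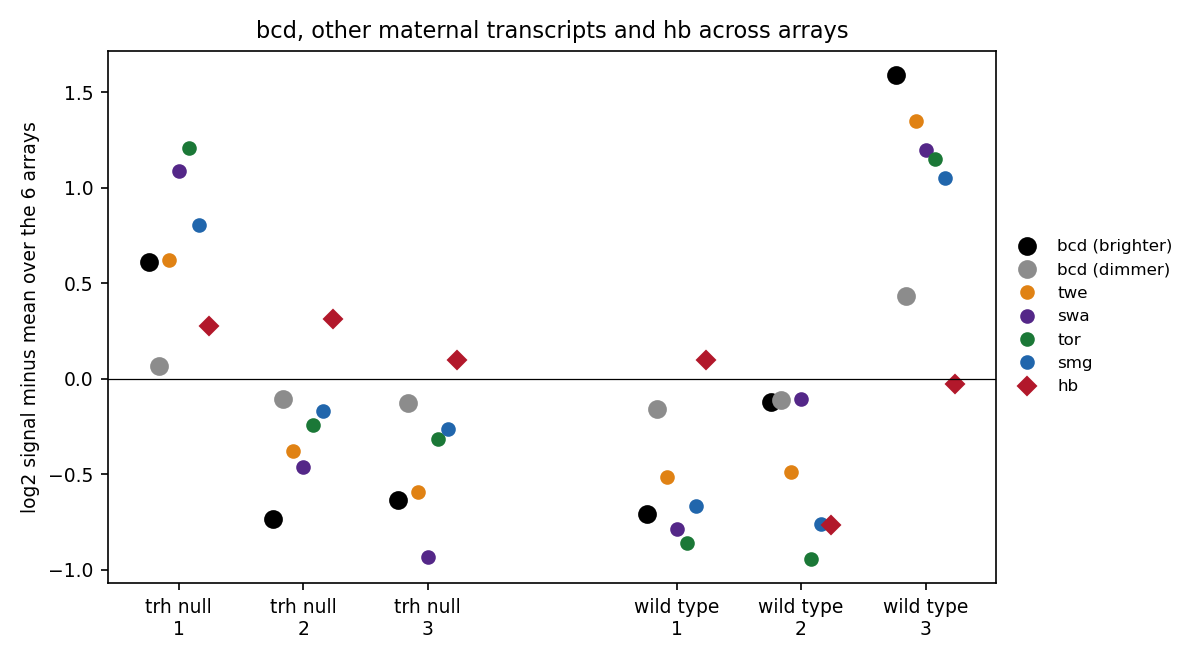
Log2 signal minus the mean over the 6 arrays, for both bcd probe sets and for twe, swa, tor, smg and hb. Trh null arrays are on the left and wild type arrays on the right. Trh null 1 and wild type 3 lie high for bcd, twe, swa, tor and smg, while hb (diamonds) is lowest on wild type 2. Maternal genes without this pattern, such as exu and vas, are not shown.

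The gene next to bcd on either side, in the RefSeq gene order, is zen or Ama. In trh null embryos zen, a dorsal homeobox gene, differed by 0.01 on the log2 scale (limma adjusted p = 0.960). Ama, an immunoglobulin-domain gene, rose by 0.56 (SE 0.14, limma adjusted p = 0.0498), just under the threshold. Calls for Ama and for the neighbours of the other genes were not followed with arrays left out.

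The cad transcript (1635796_a_at) had log2 signals of 9.46, 9.17 and 9.20 in trh null embryos and 9.70, 8.97 and 9.75 in wild type embryos. The trh null values lay between the wild type extremes, since wild type replicate 2 was the lowest of all arrays. The means were 9.28 ± 0.16 in trh null and 9.47 ± 0.44 in wild type embryos (SD, n = 3 each), a difference of -0.20 with a 95% interval from -0.73 to 0.34 (limma adjusted p = 0.631). Without wild type replicate 2 the difference was -0.45 and passed as lower (limma adjusted p = 0.0235), in a fit where 11.7% of all probe sets fell. It was -0.08 without wild type replicate 1 and -0.06 without wild type replicate 3. Closest in profile among 2298 candidates were Dref and Patronin, at distances of 0.23 and 0.24. Dref encodes an activator of replication genes and Patronin a protein of microtubule minus ends. Neither neighbour of cad passed: dia, a formin gene, differed by -0.16 and Pomp, a proteasome assembly gene, by -0.71 (limma adjusted p = 0.488 and 0.0825).

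The hb transcript was represented by 1624490_s_at. Its log2 signal was 8.76, 8.80 and 8.58 in trh null embryos and 8.58, 7.72 and 8.45 in wild type embryos. The genotypes met at 8.58, where the lowest trh null array and the highest wild type array had nearly the same value, and wild type replicate 2 lay well below the rest. The means were 8.71 ± 0.11 in trh null and 8.25 ± 0.47 in wild type embryos (SD, n = 3 each), a difference of 0.46 with a 95% interval from -0.09 to 1.01 (limma adjusted p = 0.260). Without wild type replicate 2 it was 0.19 (limma adjusted p = 0.186). The gene nearest in profile among 2006 candidates was odd, a pair-rule zinc finger gene, at a distance of 0.11, followed by cnk, a Ras pathway scaffold gene, at 0.20. The signal of odd was 9.50, 9.54 and 9.42 in trh null embryos and 9.42, 8.46 and 9.22 in wild type embryos, with the same low array as hb. Of the neighbours of hb, Cks85A, which encodes a Cdk subunit, differed by -0.43 (limma adjusted p = 0.282).

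Among the gap genes proper, Kr (1629753_at) had log2 signals of 7.88, 7.88 and 8.22 in trh null embryos and 7.21, 6.64 and 6.70 in wild type embryos. Every trh null array was above every wild type array, and the gap between the genotypes exceeded the range within either. The means were 7.99 ± 0.19 in trh null and 6.85 ± 0.31 in wild type embryos (SD, n = 3 each). Kr thus rose by 1.14 on the log2 scale (SE 0.18, 95% interval from 0.71 to 1.57, limma adjusted p = 0.0120). With 1 array left out the difference ran from 1.03 to 1.32, and the call was lost without trh null replicate 2 or 3 (limma adjusted p = 0.0533 and 0.0597). Closest in profile among 1433 candidates were olf413 and ana3, a centriole gene, at distances of 0.26 and 0.33, and both rose (by 1.15 and 1.12, limma adjusted p = 0.00310 and 0.00232). CG9380, which overlaps Kr in the RefSeq gene table, fell by 0.83 (SE 0.16, limma adjusted p = 0.0242), and the neighbour on the other side, CG30429, differed by -0.09 (limma adjusted p = 0.675).

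Markers of tissues that use Kr, cad and tll after gastrulation moved as follows. Of 9 amnioserosa markers 5 rose (Doc1, Doc2, Doc3, pnr and ush), 0 fell, and tup, peb, zen and Ance did not pass. The mean log2 signal over the list lay between 9.25 and 9.31 on trh null and between 8.44 and 8.80 on wild type arrays. Of 5 hindgut and posterior gut markers byn and fkh rose, by 0.93 each (limma adjusted p = 0.00732 and 0.01005), and the list ran from 8.82 to 8.99 on trh null and from 8.34 to 8.61 on wild type arrays. None of 5 neuroblast, 4 neuron or 4 optic lobe and brain markers passed. The means over these lists were higher on all trh null arrays. For neuroblasts they were 9.18 to 9.31 on trh null and 8.58 to 9.08 on wild type arrays. For neurons they were 7.96 to 8.12 on trh null and 7.17 to 7.61 on wild type arrays, and for the optic lobe and brain 8.42 to 8.64 on trh null and 7.85 to 8.37 on wild type arrays. The genes within these lists were uneven, with log2 differences from 0.08 (para) to 1.65 (elav) for neurons. They ran from 0.07 (eya) to 0.90 (toy) for the optic lobe and brain and from -0.05 (mira) to 0.73 (ase) for neuroblasts. Of the remaining marker lists, 4 of 5 tracheal, 4 of 5 somatic muscle and 1 of 5 late cuticle genes fell. The list means of hemocytes (9.63 to 9.74 on trh null, 9.11 to 9.54 on wild type arrays) were likewise higher on all trh null arrays. So were those of germ cells (6.47 to 6.62 on trh null, 6.30 to 6.42 on wild type arrays). The list means of trachea, somatic muscle, late cuticle and fat body were lower on all trh null arrays. Of 4 hemocyte genes 1 rose, and no germ cell (of 2) or fat body gene (of 3) passed. Over all genes 6.79% rose and 7.31% fell. These counts moved with single arrays. With 1 array left out 2 to 6 amnioserosa genes rose (2 without any 1 trh null array), 1 to 2 hindgut genes rose (1 without trh null replicate 2 or 3), and 2 to 5 muscle genes fell (2 without trh null replicate 1 or 3). Neuroblast genes that rose numbered 2 without wild type replicate 1 or 2, neuron genes 2 without wild type replicate 2 or 3, and without wild type replicate 2 1 brain gene rose and 3 cuticle genes and 1 hemocyte gene fell. The calls over the whole array moved too. Without wild type replicate 2, 17.4% of all genes rose and 14.8% fell. Without wild type replicate 1 or 3, 4.84% and 4.57% of all probe sets rose, and 4.0% and 4.38% fell. Without 1 trh null array, 1.73% to 2.27% of all probe sets rose and 2.02% to 2.23% fell. The sample descriptions ran to stage 17 for wild type and to stage 16 for trh null embryos. The parts of tissue makeup and of embryo stage in the differences of Kr, gt, tll and hb were not tested.

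For gt the probe sets differed in size but not in direction. On the brighter one (1632684_s_at) the log2 signal was 7.38, 7.30 and 7.48 in trh null embryos and 7.13, 6.64 and 7.17 in wild type embryos. On the dimmer one (1629953_at) it was 6.89, 6.92 and 6.95 in trh null embryos and 6.58, 5.93 and 6.07 in wild type embryos. The genotypes did not overlap on either probe set, with a distance of 0.13 between the nearest arrays on the brighter one and 0.31 on the dimmer one. The dimmer probe set rose by 0.73 (SE 0.17, limma adjusted p = 0.0423), and the brighter one differed by 0.40 (95% interval from 0.03 to 0.78, limma adjusted p = 0.159). The difference on the brighter one was 0.23 without wild type replicate 2 (limma adjusted p = 0.0815). The mean over both did not pass (0.57, limma adjusted p = 0.0578). The call on the dimmer probe set needed wild type replicate 3 and each of the trh null arrays, and was lost when any of these was omitted (limma adjusted p between 0.107 and 0.156). Nearest in profile to the brighter probe set among 1334 candidates were CkIIalpha-i1 and Spps, an Sp1-family gene, at distances of 0.10 and 0.16. Of the neighbours of gt, tko, a mitochondrial ribosomal protein gene, fell by 0.79 (limma adjusted p = 0.0475), and CG32797 differed by -0.07 (limma adjusted p = 0.689).

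The tll transcript (1635993_at) had log2 signals of 7.73, 7.66 and 7.88 in trh null embryos and 7.01, 7.58 and 6.72 in wild type embryos. The trh null values all lay above the wild type values, but wild type replicate 2 came within 0.09 of the lowest trh null array. Here wild type replicate 2 was the highest array of its genotype, the reverse of its place for hb, Kr, gt and cad. The means were 7.76 ± 0.11 in trh null and 7.10 ± 0.44 in wild type embryos (SD, n = 3 each), a difference of 0.65 with a 95% interval from 0.13 to 1.17 (limma adjusted p = 0.110). Without wild type replicate 2 the difference was 0.89 and passed (limma adjusted p = 0.00266), in a fit where 15.0% of all probe sets rose. The nearest profiles among 1436 candidates were those of Obp99b, an odorant-binding protein gene, and alpha-Est7, an esterase gene, at distances of 0.13 and 0.14. Neither neighbour of tll passed: CG15544 differed by -0.60 and the cuticle protein gene Cpr100A by -0.37 (limma adjusted p = 0.125 and 0.752).

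**Figure D3:**
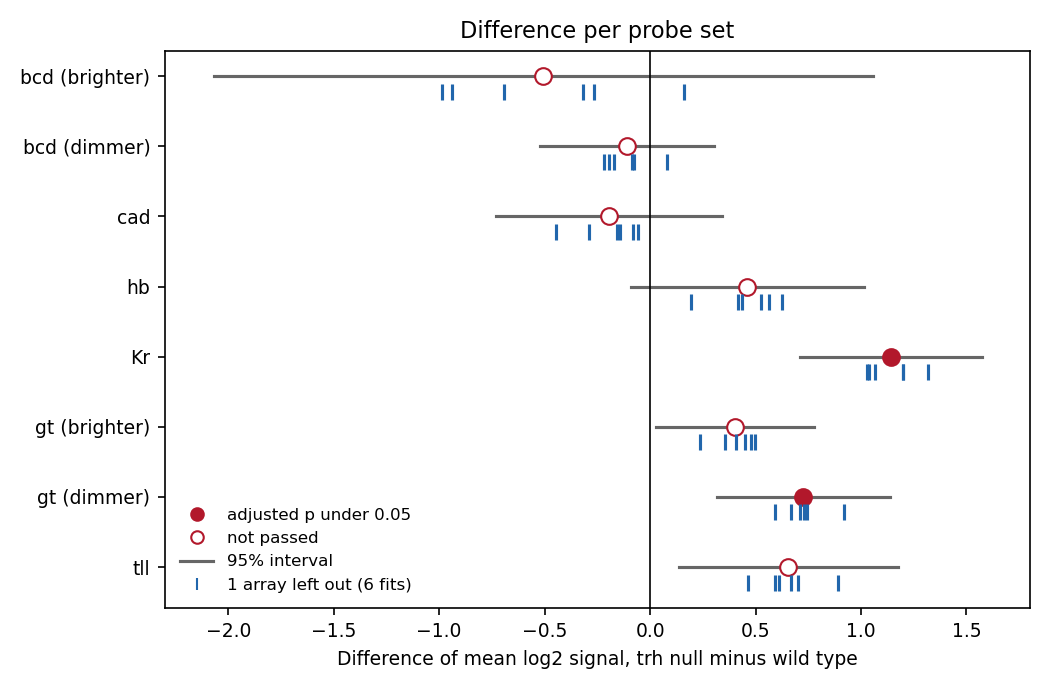
Difference of mean log2 signal, trh null minus wild type, for the 8 probe sets, with limma's 95% interval as a line and the 6 values with 1 array left out as ticks below it. Kr and the dimmer gt probe set (filled) passed, at 1.14 and 0.73, and only the bcd ticks reach both sides of 0.

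The genes that act beside or after these 6 were counted by their brightest probe set. Of 7 measured other gap and head gap genes 4 rose, 0 fell and 3 did not pass, while 6.79% of all genes rose and 7.31% fell. The median difference was 0.60, against 0.00 over all genes. The head gap gene btd, a zinc finger gene, rose 1.90-fold, with 7.33, 7.53 and 7.51 in trh null embryos and 6.77, 6.29 and 6.54 in wild type embryos (log2, limma adjusted p = 0.0101). The terminal gap gene hkb rose by 0.64, the head gap gene oc (orthodenticle) by 0.60 and the forkhead gene croc by 0.33 (limma adjusted p = 0.0316, 0.0354 and 0.0393). By contrast kni, the nuclear receptor gap gene of the abdomen, had 9.63, 9.72 and 9.81 in trh null embryos and 9.66, 10.12 and 9.29 in wild type embryos, with a difference of 0.03 (limma adjusted p = 0.949). Each of the 4 calls was lost without trh null replicate 2 and without trh null replicate 3 (limma adjusted p from 0.0584 to 0.170). Those of hkb, oc and croc were also lost without wild type replicate 3 (0.0695 to 0.0854), those of oc and croc without wild type replicate 1 (0.0699 and 0.0760), and those of hkb and croc without trh null replicate 1 (0.115 and 0.119).

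Of 7 measured pair-rule genes, which gap proteins control in the blastoderm, 2 rose and 5 did not pass (median difference 0.45), while 6.79% of all genes rose. The homeobox gene ftz rose 2.32-fold and the forkhead gene slp2 rose 1.70-fold (limma adjusted p = 0.00698 and 0.0371). For ftz the signal was 6.23, 5.89 and 5.99 in trh null embryos and 5.11, 4.56 and 4.80 in wild type embryos, so both genotypes lay near or below the median of all probe sets. The call for slp2 was lost when wild type replicate 3 was omitted (limma adjusted p = 0.0944) or when a trh null array was (limma adjusted p between 0.102 and 0.149), and the median of the list was 0.17 without wild type replicate 2.

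Of 5 factors that follow hb and Kr in the neuroblast series or end their phases, grh rose by 0.80 and svp fell by 3.50 by their brightest probe sets (limma adjusted p = 0.0162 and 0.000132). Among all genes 6.79% rose and 7.31% fell. The gene svp encodes a nuclear receptor that ends hb expression in neuroblasts. Of its dimmer probe sets, the dimmest rose by 0.79, at 4.70 in trh null and 3.91 in wild type embryos (limma adjusted p = 0.00418). The other differed by 0.04, at 5.36 in trh null and 5.32 in wild type embryos (limma adjusted p = 0.831). The call for grh did not survive the omission of any trh null array (limma adjusted p between 0.0653 and 0.0830). The remaining 3 factors, nub, pdm2 and cas, did not pass, with cas at 10.46, 10.30 and 10.57 in trh null embryos and 9.87, 8.38 and 9.36 in wild type embryos (limma adjusted p = 0.0777).

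Over 4 lists of maternal and ubiquitous regulators 2 of 32 genes rose and 0 fell, against 6.79% and 7.31% of all genes. Of 10 anterior-posterior maternal genes and translational regulators 1 rose: eIF4EHP, the cap-binding protein gene through which Bcd protein blocks cad translation, by 1.19 log2 units (SE 0.19, limma adjusted p = 0.0126). Its signal was 9.32, 9.29 and 9.41 in trh null embryos and 8.21, 7.73 and 8.49 in wild type embryos, and a second probe set rose by 0.44 (limma adjusted p = 0.0458). On the brighter probe set that call did not survive the omission of any trh null array (limma adjusted p between 0.0576 and 0.0702). Of 7 terminal system genes cic, a repressor that holds tll off in the trunk, rose by 0.88 (limma adjusted p = 0.0277), and a second, dim probe set for it differed by -0.05. The call for cic was lost when wild type replicate 1 or any trh null array was omitted (limma adjusted p between 0.0646 and 0.121). None of 11 dorsal-ventral maternal genes passed in limma's test, and 3 were at an unadjusted p under 0.05, against the 30.4% of all genes. Furthest from 0 among them were dl, the NF-kappaB factor gene, at -0.56, and pip, at 0.52 by the brightest of its 10 probe sets. These ran from -0.69 to 1.28, and of the dimmer ones 1 rose and 1 fell. None of the 4 general early activators passed, of which 1 was at an unadjusted p under 0.05, with zld at 0.56 and Trl at -0.31 (limma adjusted p = 0.190 and 0.0726). The median difference was 0.28 for the anterior-posterior genes (0.03 to 0.47 with 1 array left out) and 0.25 for the terminal genes (0.12 to 0.29). It was 0.10 for the dorsal-ventral genes (-0.09 to 0.35) and -0.02 for the activators (-0.22 to 0.19), so the sign of the last 2 turned with the array left out.

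**Figure D4:**
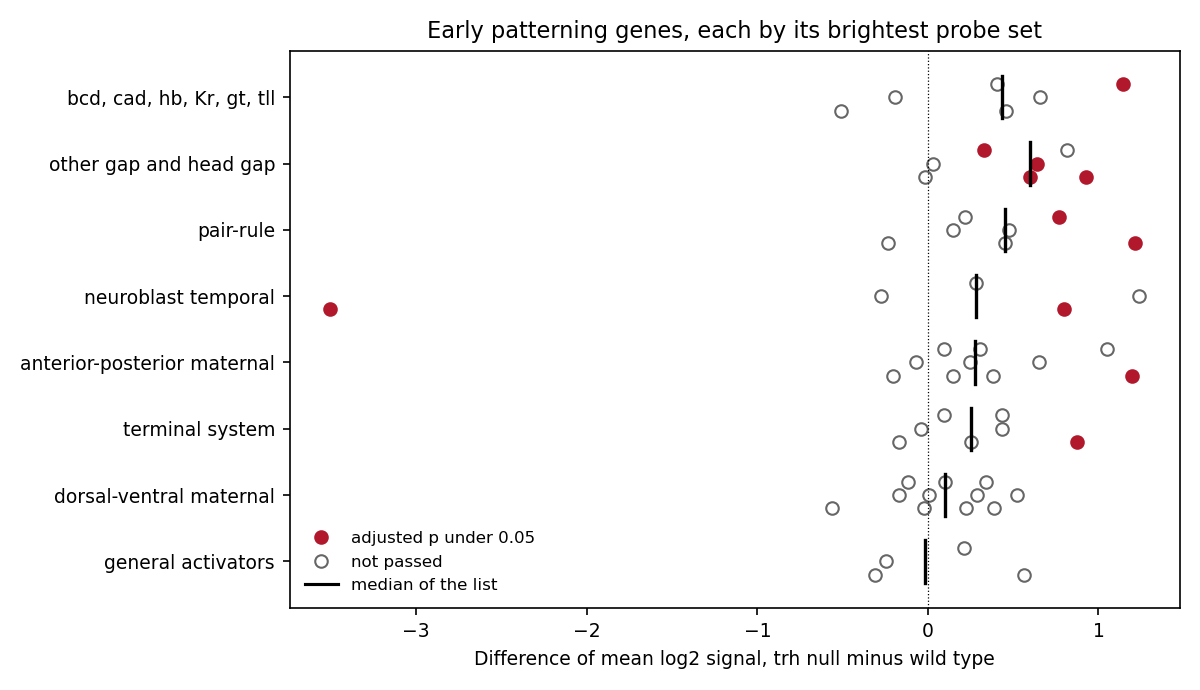
Difference of mean log2 signal, trh null minus wild type, for each gene by its brightest probe set, in the 6 genes followed here and in the 7 lists of related genes. Filled points passed at an adjusted p under 0.05 and the bar is the median of the list. The other gap and head gap genes have 4 filled points to the right of 0, and the single filled point to the left is svp.

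Without wild type replicate 2, the array that stood apart, 5 other gap and head gap genes, 2 pair-rule genes, 2 temporal factors, 2 anterior-posterior maternal genes, 1 terminal gene and 1 dorsal-ventral gene rose. The pair-rule gene hry (hairy), the dorsal-ventral gene dl (-0.75, limma adjusted p = 0.00210) and 1 temporal factor fell. In that fit 17.4% of all genes rose and 14.8% fell. In the same fit 3 of the 8 probe sets for the 6 genes rose and 1 fell, where 15.0% of all probe sets rose and 11.7% fell. Without wild type replicate 3 and trh null replicate 1, on which bcd was brightest in each genotype, none of the 8 probe sets passed in limma's test. That fit, chosen after seeing the data, held 2 arrays per genotype, and 0.538% of all probe sets rose in it. The differences were then 1.12 for Kr, 0.68 and 0.50 for gt, 0.54 for hb, 0.47 for tll, -0.15 for cad, and -0.27 and 0.02 for bcd.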

How the data were processed

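Whole-embryo RNA, extracted with TRIzol, went through amplification from the 3' end and biotin labelling, per the labels' protocols. The deposited values were log2 signals per probe set: RMA and Partek are named, per the submitters' processing notes, without versions, and base 2 was inferred from the range. RMA equalises the quantiles of all arrays, so a change common to the whole transcriptome would not show. No further normalization was applied. Of 18952 probe sets, 183 Affymetrix controls were left out. The platform annotation named 1 gene for 13646, several for 402 and none for 4721, and probe sets with several names were used for no gene. Sequences and scanner files were not used here. RefSeq's gene table (Release 6 plus ISO1 MT) gave gene order only.

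The tests used limma 3.58.1 (lmFit, eBayes; R 4.3.3), a model with genotype alone, and Benjamini-Hochberg adjustment over 18769 probe sets. "Rose" and "fell" mean an adjusted p under 0.05 in trh null against wild type. Differences of dim probe sets understate changes. A probe set ending in s_at can bind more than 1 transcript. The fit was tested on simulated data with the same spread in both genotypes and no array that stood apart, unlike the arrays here. Exact tests used scipy 1.17.1.

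The genes and lists were chosen with earlier results of these data known. Named were every gene of the 6, up to 4 genes per list that passed (2 where none did), each by its brightest probe set, and the 2 nearest profiles per gene, leaving out genes with CG numbers. Neighbours, markers, kni, cas and the genes named for the array pattern were chosen outside this rule. For slp1, nos, run, cup and some other listed genes no probe set was named singly, and they were not analysed here. Alternatives were a trend and robust prior, unmoderated variances, array weights, 3 other scalings (cyclic loess, median centring, quantile), a filter on the 40% dimmest probe sets, probe sets averaged per gene, a replicate block, adjusted p under 0.01, and each array left out. A fit without wild type replicate 3 and trh null replicate 1 was chosen after seeing the data. The number of arrays limits the precision.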

Additional observations from a re-analysis of the deposited data

How the results depend on the processing

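Over the 8 probe sets for bcd, cad, hb, Kr, gt and tll, the direction of the difference held under every alternative run except for bcd. It turned without wild type replicate 3 (0.16 in place of -0.51 on the brighter and 0.079 in place of -0.11 on the dimmer probe set) and, on the dimmer one, without that array and trh null replicate 1 together (0.018). With 1 array left out bcd ran from -0.99 to 0.16 on the brighter and from -0.22 to 0.079 on the dimmer probe set. The count of all probe sets called, 2219, was 949 with unmoderated variances, 6003 with array weights, 726 with the replicate block, 738 at adjusted p under 0.01, 228 without wild type replicate 3 and trh null replicate 1, and 704 to 5001 with 1 array left out. Of the 8 probe sets, 2 rose in the fit as reported, where 6.19% of all probe sets rose, and 4 with array weights, where 17.3% rose. With the replicate block 0 rose, where 1.74% of all rose, and 0 without the pair of arrays, where 0.538% rose. With unmoderated variances and at adjusted p under 0.01 also 0 rose, where 949 and 738 of all probe sets were called in either direction. With 1 array left out 0 to 3 rose and 0 to 1 fell, where 1.73% to 15.0% of all probe sets rose and 2.02% to 11.7% fell. With array weights 1 fell, where 14.7% of all probe sets fell. Array weights gave cad -0.44, tll 0.77 and the brighter gt probe set 0.27 (limma adjusted p = 0.0184, 0.00157 and 0.0470). The replicate block gave limma adjusted p = 0.0626 for Kr and 0.105 for the dimmer gt probe set. Under it the calls for hkb, btd, oc, croc, cic, slp2 and grh were lost too (0.0572 to 0.137). Unmoderated variances lost Kr (0.0710), the dimmer gt probe set (0.133) and hkb, btd, oc, eIF4EHP, cic, ftz, slp2 and grh (0.0538 to 0.125). Same-numbered arrays did not deviate together (correlations of deviations -0.37, -0.06 and -0.05 over probe sets). The deviations are from a mean of the same arrays, so whether same-numbered arrays were handled together cannot be told from them. The calls for croc and oc were also lost with a trend and robust prior (0.0757 and 0.0506), that for oc with quantile normalization (0.0622), that for croc without the dimmest probe sets (0.0635), and those for hkb, slp2 and cic with cyclic loess (0.0648, 0.0569 and 0.0563). The causes were not tested, except that leaving out arrays also removes replicates. No scaling moved the median of all probe sets by more than 0.1. Averaging of probe sets per gene bears on bcd and gt alone.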
